A study of Mus musculus with 15 samples.

Results

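This account covers mature mouse eggs from adult females, and compares eggs that completed meiosis inside the animal with eggs that completed it in a dish. The members are the 5 arrays that the labels give as metaphase II (MII) oocytes of females 7 to 8 weeks old, out of 15 arrays in 6 groups. All females were B6D2F1 hybrids primed with the gonadotropin PMSG. The 3 in vivo arrays hold ovulated oocytes of females that also received hCG 48 h after PMSG. The 2 in vitro arrays hold oocytes taken from the ovary at the germinal vesicle (GV) stage 48 h after PMSG and kept for 16 h in Gmat medium. All groups, the GV oocytes included, were stripped of cumulus cells with hyaluronidase. Each array shows amplified poly(A) RNA from a pool of 150 oocytes, and nothing in the labels ties a pool to particular animals. The p-values below therefore measure the spread between pools, estimated within the 6 groups of all 15 arrays and not from the 5 adult pools alone. That spread may in part be technical, and fewer cells of a type cannot be told apart from less RNA per cell. The same contrast in females of 26 days (2 in vivo and 3 in vitro arrays) and 2 arrays of adult GV oocytes are used for comparison.

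A fully grown oocyte has stopped transcription and lives on messenger RNA stored during growth. During maturation much of that store is deadenylated and degraded while other messages are kept back, gain poly(A) and are translated. RNA captured by its poly(A) tail reads both processes, since a message that loses its tail is lost from the sample even before it is degraded. Maturation in the follicle takes place under signals from cumulus and granulosa cells and ends with passage into the oviduct, whereas culture takes place outside follicle and oviduct. In vitro matured eggs are known to support development less well than ovulated ones, and the comparison asks which transcripts differ between them.

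The arrays differed in brightness in a way that the groups did not explain. In the values as deposited, 3035, 6734 and 6458 probe sets of the in vivo arrays 1, 2 and 3 and 4882 and 2753 of the in vitro arrays 1 and 2 exceeded an intensity of 200. In vivo array 1 and in vitro array 2 lay under 4000 and are called dim here, as were 2 of the 3 in vitro arrays at day 26. The ratio of the 3' to the 5' control probe set of Gapdh was 3.31 and 2.27 on the dim adult arrays and 19.7 to 20.6 on the other adult MII arrays. Both sets were weak on the dim adult arrays, at 24.6 and 21.6 for the 3' and 7.45 and 9.54 for the 5' set. The medians of those arrays were 7.61 and 6.22. On the other adult MII arrays the 3' set read 81.8 to 356 and the 5' set 3.96 to 18.1. With signals this weak the ratio is not read as RNA integrity. Across 22519 probe sets in vivo arrays 2 and 3 correlated best, at a Pearson coefficient of 0.916. The dim in vivo array 1 correlated at 0.806 and 0.831 with in vivo arrays 2 and 3. With in vitro arrays 1 and 2 it correlated slightly higher, at 0.848 and 0.837. The 2 in vitro arrays correlated at 0.837 with each other, while in vitro array 1 and in vivo array 3 correlated at 0.896. The other between-group pairs ranged from 0.793 to 0.877. Oocyte transcripts were at high levels on all 5 arrays: the normalized log2 intensity of Gdf9, an oocyte growth factor, was 12.89, 13.55 and 13.53 in vivo and 13.37 and 12.07 in vitro. Btg4, an adaptor of maternal mRNA decay, read 12.97, 13.56 and 13.43 in vivo and 13.22 and 12.71 in vitro. The labelled cell type thus carried its defining transcripts in both groups.

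The other stage and reference genes also overlapped between the groups. Bmp15, the partner of Gdf9 in signalling to the cumulus, had group means that differed by -0.43 (in vivo minus in vitro, log2), and Zp3, a zona pellucida protein, by -0.10, with a sign that turned to 0.21 under median scaling. Ccnb2, a cyclin of the M-phase kinase, differed by 0.58, Dppa3, a maternal factor needed after fertilization, by -0.62 and Actb, cytoplasmic actin, by 0.10. Mos, the kinase behind MII arrest, read 6.06, 12.39 and 10.02 in vivo and 7.84 and 6.55 in vitro. H1f8, the oocyte linker histone, read 7.84, 11.07 and 9.06 in vivo and 8.47 and 9.08 in vitro. Both were lowest in vivo on the dim array 1. Plat, a protease whose stored message is activated in maturation, read 11.56, 13.49 and 13.17 in vivo and 12.43 and 10.79 in vitro. None of these 10 genes passed the test, and adjusted p-values for them ran from 0.630 to 0.964 (limma, Benjamini-Hochberg over all tested probe sets).

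No annotated gene passed the test between in vivo and in vitro matured adult oocytes. Of 22519 probe sets tested, 1 was called higher in vivo at an adjusted p below 0.05 (0.00444%) and 0 lower (0%), and of the 12028 genes represented by 1 probe set each, 0 were called in either direction. At an unadjusted p below 0.05, 1177 probe sets (5.23%) lay higher after in vivo maturation and 624 (2.77%) lower. The arrays of the 2 groups did not overlap for 2152 probe sets with in vivo above (9.56%) and 2163 with in vivo below (9.61%). Over genes 5.3% lay higher and 2.84% lower at an unadjusted p below 0.05, and the shares without overlap were 9.18% above and 9.54% below, against which the counts of each gene group below are to be read. Those counts cover the list members that passed the filter on low signal, and members below it are not included. The standard error of the difference was large: its median was 1.05 log2 units for the lowest probe sets tested, 0.69 for the middle and 0.40 for those above a mean of 6.49. A change of 2-fold (log2 of 1) was thus below the typical error for weak signals.

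The probe set that was called, 1442383_at, has no gene symbol in the annotation used. It read 4.53, 4.63 and 4.51 in vivo and -0.31 and -0.64 in vitro. All 3 in vivo arrays stood at the same level and both in vitro arrays fell to the bottom of the scale, a difference of 5.03 ± 0.59 (SE) with an adjusted p of 0.0111 (limma). At day 26 the same probe set differed by 0.70 (unadjusted p = 0.256), with all 5 arrays between 3.64 and 5.06, and in adult GV oocytes its mean was 4.56. The call was lost without in vivo array 2 (adjusted p = 0.107), in vivo array 3 (0.0878) or in vitro array 2 (0.0632). It was also lost with the values as deposited (0.268), a pseudocount (0.189), array weights (0.0626), brightness as a covariate (0.0540) and a fit to the 5 adult arrays alone (0.884, or 0.881 with their own normalization), and it was not tested in the upper 30% of probe sets. The cause of these losses was not tested.

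The number of calls turned on which in vitro array was kept. Without in vitro array 1, which leaves the dim in vitro array alone against 3 in vivo arrays, 407 probe sets were called higher and 5 lower. Without the dim arrays, which leaves in vitro array 1 alone against in vivo arrays 2 and 3, 119 were called higher and 3 lower. Only 3 probe sets were called in the same direction in both settings, of 412 in the former and 122 in the latter. In each of these fits the lone in vitro array is assumed to vary like the other groups. Of the genes named below, 5 were called without the dim arrays: Castor1, Vps35l, Ctsb, Cdk1 and Uqcrfs1, all higher in vivo. Without in vitro array 1, 21 of the named genes were called.

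**Figure D1:**
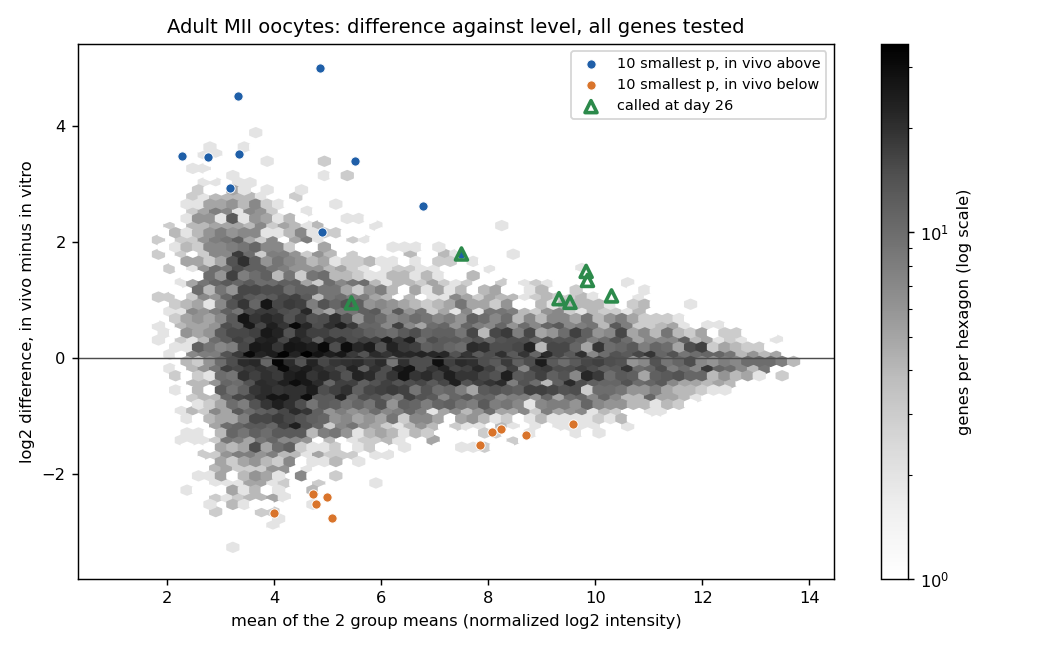
Difference between in vivo and in vitro matured adult oocytes (y axis, log2) against the mean of both group means (x axis, normalized log2 intensity) for the 12028 genes tested, with grey hexagons shaded by the number of genes on a log scale. Blue and orange points mark the 10 genes with the smallest unadjusted p in each direction, and green triangles the 7 genes called at day 26. The spread widens towards low levels, where most of the blue points lie.

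The genes with the smallest p and in vivo above in vitro were Wdtc1, Gm19600, Castor1, Cby3, Nat10, Saa3, Tm2d1, Cetn2, Vps35l and Hoxb1. Their differences ran from 1.80 to 4.996 and their adjusted p-values from 0.0975 to 0.291 (limma), so none passed. Wdtc1, a WD-repeat protein linked to fat storage, read 5.83, 5.89 and 5.04 in vivo and 1.92 and 0.20 in vitro. Castor1, a cytosolic arginine sensor upstream of mTORC1, read 6.37, 8.10 and 7.17 in vivo and 4.16 and 3.47 in vitro. Nat10, an RNA cytidine acetyltransferase, read 5.83, 6.30 and 5.85 in vivo and 3.71 and 3.92 in vitro. For all 3 the in vitro arrays were the low ones, and at day 26 the differences were -0.06 for Wdtc1, -0.07 for Castor1 and -0.10 for Nat10, with arrays that overlapped.

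The transcript Gm19600, a predicted gene, read 5.43, 4.47 and 5.43 against 2.12 and 1.07. Cby3, a member of the chibby family, read 3.73, 4.39 and 3.98 against 0.43 and 0.66. Hoxb1, a homeobox transcription factor, read 4.27, 4.62 and 4.58 against 1.11 and 0.95. These were weak signals: for 6 of the 10 genes the in vitro mean lay below 3.07, the level above which a probe set's mean over all arrays had to lie to be tested. Vps35l, a subunit of the retriever complex of endosomal recycling, read 3.29, 5.29 and 5.33 against 1.65 and 1.77, with the dim in vivo array lowest of its group. Without that array its difference was 3.60 and passed the test (adjusted p = 0.0360, limma).

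Tm2d1 and Cetn2 were the strongest signals among these 10. Tm2d1, a membrane protein that binds amyloid beta, read 8.33, 8.14 and 8.73 in vivo and 6.77 and 6.44 in vitro. A weaker probe set of Tm2d1 overlapped in adults with a difference of 0.016, and differed by 1.26 at day 26. Cetn2, a centrin of centrioles and nucleotide excision repair, read 8.73, 7.85 and 7.72 in vivo and 5.87 and 5.10 in vitro. Both also stood apart at day 26, by 2.80 (adjusted p = 0.0192) and 2.69 (adjusted p = 0.0996), as described further on.

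The genes with the smallest p and in vivo below in vitro were Cd151, H2aj, Tes3-ps, Ptpn4, Ceacam10, D5Ertd615e, Emp2, Nfkbie, Prkg1 and Wdr6, with adjusted p-values from 0.356 to 0.425 (limma). Cd151, a tetraspanin that binds integrins, read 8.60, 8.08 and 7.45 in vivo and 9.41 and 9.33 in vitro, a difference of -1.33 ± 0.34 (SE). Another Cd151 probe set of similar level differed by -1.20 without overlap. Weaker ones overlapped, at -0.46, 0.09 and 0.87. Emp2, a membrane protein of epithelia, read 7.20, 7.68 and 7.98 against 8.63 and 9.05. Prkg1, the cGMP-dependent protein kinase I, read 7.79, 7.21 and 7.29 against 8.66 and 8.73, although another probe set of Prkg1 differed by 1.36 in the other direction. Tes3-ps, a pseudogene whose signal may be shared with its parent gene, was at 8.98, 9.06 and 8.99 against 9.85 and 10.43. In these 4 genes every array lay well above the filter level, and the group means differed by little more than 1 log2 unit.

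The other genes with in vivo below in vitro had larger differences at lower levels. H2aj, a histone H2A variant, read 3.93, 2.11 and 5.10 in vivo and 6.14 and 6.80 in vitro, with another probe set at 0.90 in the other direction. Ptpn4, a tyrosine phosphatase, read 3.76, 3.14 and 3.67 against 5.44 and 6.63. Nfkbie, an inhibitor of NF-kappa B, read 4.21, 3.34 and 3.82 against 5.39 and 6.97. Wdr6, a WD-repeat partner of a tRNA methyltransferase, read 4.26, 2.37 and 4.08 against 5.97 and 5.84. Ceacam10, a cell adhesion molecule, was at 7.85, 6.57 and 6.85 against 8.39 and 8.79. D5Ertd615e, an uncharacterized transcript, read 1.93, 1.61 and 4.45 against 4.72 and 5.94. The in vivo arrays of H2aj and D5Ertd615e were spread over more than 2 units, as wide as the gap between the group means.

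**Figure D2:**
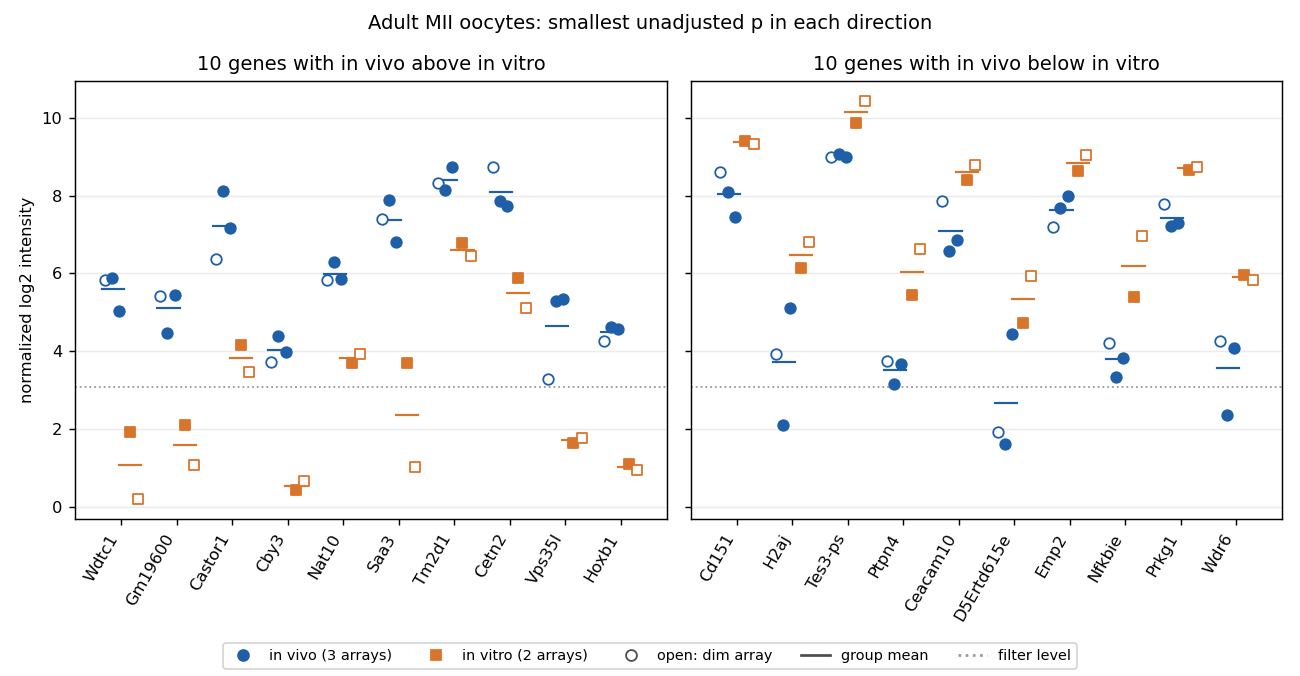
Normalized log2 intensity (y axis) of the 20 genes with the smallest unadjusted p, 10 in each direction, on the 3 in vivo (blue circles) and 2 in vitro (orange squares) adult arrays. Open symbols are the dim arrays, short lines the group means and the dotted line the filter level of 3.07. The arrays of the 2 groups do not overlap for any of the 20 genes, which the choice of these genes required.

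The day 26 arrays do not enter the adult means, but both contrasts come from one fit with a shared normalization and a shared estimate of the spread. There 9 probe sets were called higher in vivo (0.04%) and 0 lower (0%), and these include 7 genes (0.0582%): Tm2d1, Slc35b3, Elobl, Ube2t, Kpna2, Mtx2 and Bicd2. In adults all 7 had their 3 in vivo arrays above both in vitro arrays, and 6 had an unadjusted p below 0.05, but none passed the test (adjusted p-values of 0.291 to 0.655, limma). Kpna2, an importin alpha that carries proteins into the nucleus, read 10.15, 10.57 and 10.85 in vivo and 9.40 and 8.97 in vitro in adults, a difference of 1.34 ± 0.29 (SE). At day 26 it read 10.72 and 11.33 in vivo and 8.82, 9.32 and 8.95 in vitro, and its mean in adult GV oocytes was 13.31. Ube2t, the ubiquitin-conjugating enzyme of the Fanconi anaemia pathway, read 10.78, 10.27 and 10.68 against 9.24 and 8.93 in adults, and 11.25 and 11.24 against 8.31, 9.34 and 8.24 at day 26. For both transcripts every in vitro array lay below every in vivo array of the same age.

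Elobl, an elongin B-like protein, differed by 1.07 in adults and 1.72 at day 26. Bicd2, a dynein adaptor, differed by 0.96 and 1.59, and Slc35b3, a transporter of the sulfate donor PAPS, by 1.03 and 2.52. Mtx2, a mitochondrial import protein, differed by 0.95 and 3.61. All 7 differences, which were chosen by the day 26 test, were smaller in adults than at day 26, and the test of the difference between ages called none of them.

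Across all 12028 genes, the adult and the day 26 differences had a Pearson coefficient of 0.260, and 65.2% had the same sign. Among the 4812 genes above a mean level of 6.49 the coefficient was 0.736 and the share 79.1%. These are descriptions across genes, which are not independent, and 2 of the 3 day 26 in vitro arrays and 1 of the 2 adult in vitro arrays are dim. Without the dim arrays, which leaves 1 in vitro array at each age, the coefficient of the 4812 genes was 0.105 and the share with the same sign 56.3%. With brightness as a covariate they were 0.468 and 63.2%. Within adults, the difference between the brighter arrays and that between the dim arrays had a coefficient of 0.181 over the same genes.

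A set of 39 genes, chosen after their values were seen, had no overlap between groups and an unadjusted p below 0.01 at each age, 32 with in vivo above (0.266%) and 7 with in vivo below (0.0582%). Since no array overlaps, their direction is also that of the brighter arrays alone. Among those with in vivo above, Tspyl5 and Pef1 had means over all arrays of 3.08 and 3.12. Both passed the filter level of 3.07 only through the adult in vivo arrays. Those above include Bub3, which guards the spindle checkpoint: it read 10.57, 10.73 and 11.19 in vivo and 10.07 and 9.62 in vitro in adults, and 11.004 and 11.349 against 9.82, 9.96 and 10.14 at day 26. Cetn2 at day 26 read 8.80 and 9.05 in vivo against 5.64, 7.42 and 5.66 in vitro. Ndrg4, of the N-myc downstream-regulated family, read 8.70, 8.79 and 8.17 in adults in vivo against 6.75 and 7.11. Atp6v1g1, a subunit of the vacuolar proton pump, read 11.23, 10.47 and 10.20 against 8.54 and 8.74. Between brighter arrays the adult differences of these 4 genes were 0.90 for Bub3, 1.91 for Cetn2, 1.73 for Ndrg4 and 1.79 for Atp6v1g1, beside 0.99, 2.61, 1.63 and 1.99 over all arrays.

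The 7 genes with in vivo below at both ages include Cd151, Vps4b, Upf2, Mki67 and Hspd1. Vps4b, an ATPase that takes ESCRT complexes apart, read 9.89, 9.01 and 9.14 in vivo and 10.38 and 10.84 in vitro. Upf2, of nonsense-mediated decay, read 10.09, 8.96 and 9.49 against 10.61 and 11.07. Mki67, the Ki-67 coat protein of mitotic chromosomes, read 9.47, 8.72 and 9.07 against 9.89 and 10.14. Their adult differences of -1.26, -1.33 and -0.93 stood beside day 26 differences of -1.53, -1.38 and -1.81.

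**Figure D3:**
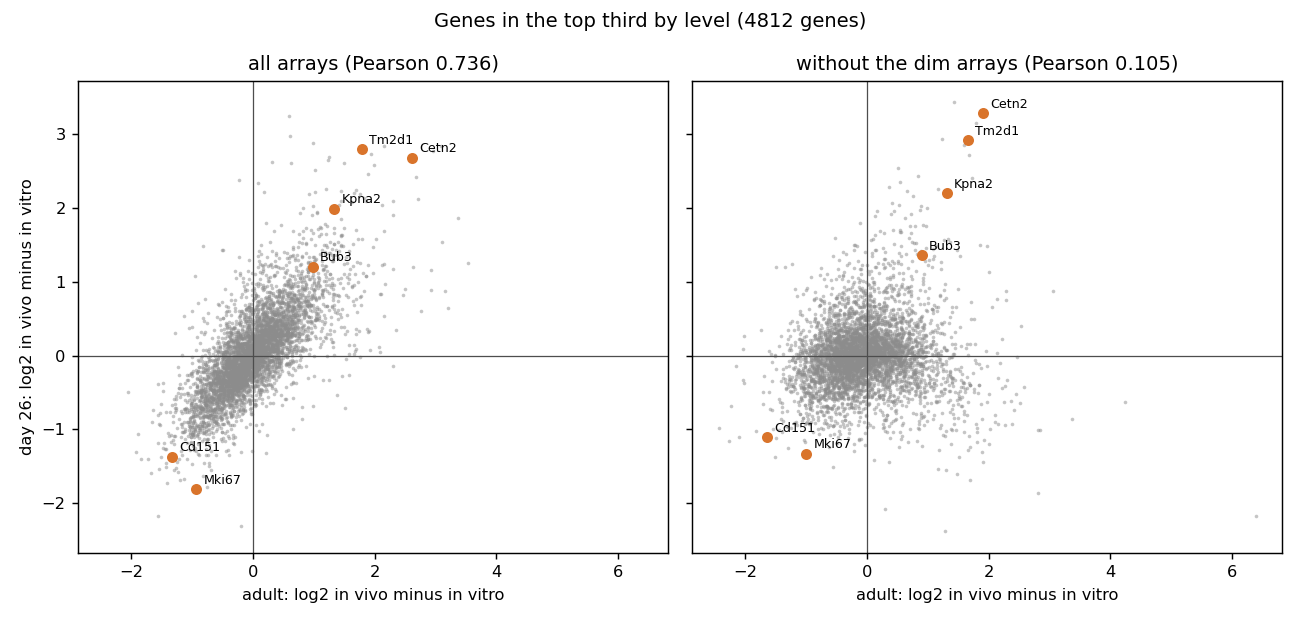
Difference between in vivo and in vitro matured oocytes at day 26 (y axis, log2) against that in adults (x axis, log2) for the 4812 genes with a mean level above 6.49, over all arrays (left) and without the dim arrays (right). Orange points mark 6 genes named in the text. The elongated cloud on the left has a Pearson coefficient of 0.736 and the round one on the right 0.105, while the 6 genes, chosen for no overlap at either age, keep their quadrant.

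The promoters of Kpna2 and Ube2t are shown because both transcripts were called at day 26 and did not overlap in adults, and both windows contain CCAAT boxes, elements bound by NF-Y in many genes of the cell cycle. Each sequence is RefSeq's for build GRCm38.p6, from 250 bases before to 50 after the annotated start, and capitals mark CCAAT on either strand. The Kpna2 window (chr11:106999476-106999775, minus strand) holds 2 matches and the Ube2t window (chr1:134962315-134962614, plus strand) 3. Among 32851 promoters of this length 37.4% hold at least 1 match, so a match alone sets neither gene apart.
Kpna2: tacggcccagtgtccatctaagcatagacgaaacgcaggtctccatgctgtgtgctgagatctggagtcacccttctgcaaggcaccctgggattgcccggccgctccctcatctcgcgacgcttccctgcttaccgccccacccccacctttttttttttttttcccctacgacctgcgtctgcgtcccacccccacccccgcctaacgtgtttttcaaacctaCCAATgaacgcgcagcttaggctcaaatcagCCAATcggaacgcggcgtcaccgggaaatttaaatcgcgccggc
Ube2t: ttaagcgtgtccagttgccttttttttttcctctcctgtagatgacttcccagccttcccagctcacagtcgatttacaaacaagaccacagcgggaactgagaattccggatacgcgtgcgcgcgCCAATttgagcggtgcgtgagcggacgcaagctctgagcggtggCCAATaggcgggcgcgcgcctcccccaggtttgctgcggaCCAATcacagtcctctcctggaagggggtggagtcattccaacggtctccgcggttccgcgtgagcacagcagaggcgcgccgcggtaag

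Among markers of other cell types, those of leukocytes were above in ovulated adult oocytes without overlap more often than below. Ovulated oocytes are collected from the oviduct and GV oocytes from the ovary, so the cells that can come along differ between the groups. Of 12 leukocyte markers tested, 6 had all in vivo arrays above both in vitro arrays and 0 below, with a median difference of 0.84 beside 0.03 over all genes tested. None passed the test. Adgre1, the macrophage antigen F4/80, read 6.52, 6.07 and 5.93 in vivo and 4.04 and 4.09 in vitro. Cd74, the invariant chain of MHC class II, read 4.21, 4.68 and 5.27 against 2.93 and 0.58. Lyz2, the lysozyme of myeloid cells, read 7.67, 5.99 and 5.73 against 1.28 and 4.32, and Ctss, their cathepsin S, 8.06, 6.45 and 6.11 against 5.41 and 3.76. Lyz2 and Ctss were highest on the dim in vivo array 1. Of the 12 tested, 8 had a higher mean in vivo. The others lay slightly below with overlap: H2-Aa, a chain of MHC class II, by -0.17, Laptm5 by -0.20, Cd68 by -0.22 and Lcp1 by -0.25.

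Without the filter 24 leukocyte markers had a probe set, 9 of them with in vivo above and 0 with in vivo below, beside 9.45% and 10.2% of 18193 genes. Their summed linear intensity was 1444, 764 and 824 in vivo and 442 and 546 in vitro, so the groups did not overlap. At day 26 the sums overlapped, at 492 and 437 for ovulated against 412, 582 and 429 for cultured oocytes, and the adult GV sums were 361 and 325. The common leukocyte antigen Ptprc overlapped between the groups, at 4.76, 3.60 and 3.77 in vivo and 3.62 and 3.05 in vitro, and the integrin Itgam lay below 3.07 on all 5 arrays. The part of other cells in the adult differences was not tested.

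Of 16 acute phase and interferon response genes tested, 5 had in vivo above without overlap and 0 below, with a median of 0.70, and none passed the test. Without the filter 33 had a probe set, 6 of them with in vivo above and 2 below and a median of 0.23. Saa3, a serum amyloid A made by macrophages and epithelia in inflammation, read 7.40, 7.90 and 6.79 in vivo and 3.70 and 1.04 in vitro, a difference of 4.996 ± 0.99 (SE, adjusted p = 0.291, limma). Slfn4, a schlafen gene of myeloid cells, read 6.25, 4.63 and 7.66 against 1.18 and 3.52. Its mean of 3.17 passed the filter only through the adult in vivo arrays, since it was 2.41 over the other 12. Cxcl2, a chemokine that attracts neutrophils, read 7.40, 5.38 and 7.80 against 3.07 and 5.02. At day 26 the arrays overlapped for all 3, with differences of 1.96, -2.23 and -0.27.

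The Saa3 and Cxcl2 promoters are shown because both encode secreted inflammatory proteins named above, and both are textbook targets of inflammatory factors. Capitals mark TTNNGCAA in Saa3 (chr7:46715627-46715926, minus strand), a pattern of C/EBP sites, and GGGANTT in Cxcl2 (chr5:90903649-90903948, plus strand), the start of the NF-kappa B consensus, both searched on both strands. TTNNGCAA occurs in 10.8% and GGGANTT in 16.5% of the 32851 promoters. A match is a run of letters and not a measured site.
Saa3: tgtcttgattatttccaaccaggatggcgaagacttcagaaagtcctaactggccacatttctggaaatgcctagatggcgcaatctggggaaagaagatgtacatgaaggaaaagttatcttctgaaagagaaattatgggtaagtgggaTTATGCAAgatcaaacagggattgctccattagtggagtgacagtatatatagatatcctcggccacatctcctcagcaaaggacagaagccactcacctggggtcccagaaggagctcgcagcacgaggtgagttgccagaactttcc
Cxcl2: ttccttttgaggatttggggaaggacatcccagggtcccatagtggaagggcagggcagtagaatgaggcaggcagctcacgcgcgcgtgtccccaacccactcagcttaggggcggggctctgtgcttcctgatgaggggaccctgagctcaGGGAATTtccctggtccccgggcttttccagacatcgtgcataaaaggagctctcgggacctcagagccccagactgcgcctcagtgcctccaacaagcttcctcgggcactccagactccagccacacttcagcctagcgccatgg

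Markers of the oviduct and of the follicle were mixed. Among 9 oviduct epithelium markers tested, 3 had in vivo above and 1 below without overlap. Ovgp1, the oviduct glycoprotein that coats ovulated eggs, read 8.02, 5.50 and 8.55 in vivo and 4.90 and 3.46 in vitro, and Clu, clusterin, 6.88, 5.04 and 5.93 against 4.68 and 2.62. The summed intensity of 19 oviduct markers overlapped, at 5766, 3115 and 3136 in vivo and 3717 and 3755 in vitro. Most of that sum came from Cdh1, at 12.26, 11.39 and 11.19 against 11.69 and 11.71. Its mean in adult GV oocytes was 10.50. The overlap of the sums therefore says little about the other oviduct markers, and a sum without Cdh1 was not taken. The ciliary factor Foxj1 lay between 0.49 and 4.49 on the 5 arrays. Of 11 cumulus and granulosa markers tested, 2 were above and 1 below without overlap, and of 13 genes of cumulus expansion 1 was above and 1 below. Gja1, the gap junction protein of cumulus and granulosa cells, read 8.40, 4.86 and 7.56 against 1.23 and 3.16. Has2, the hyaluronan synthase of cumulus expansion, lay the other way, at 4.99, 4.19 and 3.39 against 5.30 and 6.74. The pentraxin Ptx3 of the expanded matrix was above in vivo, at 5.97, 4.36 and 4.74 against 3.27 and 1.72. Its mean over all arrays of 3.13 passed the filter level of 3.07 only through the adult in vivo arrays, whose mean was 5.02. Of the 21 genes of cumulus expansion with a probe set, taken without the filter, 2 were above and 1 below. Inhbb, an inhibin beta subunit of granulosa cells, read 5.45, 4.19 and 4.52 against 1.57 and 4.08. The marker below was Nr5a2, a nuclear receptor of granulosa cells, at 6.56, 7.27 and 7.59 against 7.73 and 7.78, with a day 26 difference of -0.75. Kitl, the granulosa ligand of the oocyte receptor Kit, and Foxl2, a granulosa transcription factor, differed by -0.54 and -0.75 with overlap.

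Summed over 18 cumulus and granulosa markers, intensities came to 1189, 963 and 1208 for ovulated and 942 and 1010 for cultured oocytes, and those of 21 genes of cumulus expansion were 8905, 7584 and 7133 against 8127 and 8508, so both overlapped. Most of the latter sum came from Rgs2, at 12.66, 12.57 and 12.42 against 12.55 and 12.62, with a mean of 13.10 in adult GV oocytes. Its overlap therefore says little about the other genes of cumulus expansion. Of the 2 red blood cell markers tested, Hba-a2, alpha globin, read 6.03, 5.78 and 6.96 against 5.55 and 4.73, and Ermap, a red cell membrane protein, overlapped with a difference of -0.45. Below the filter Alas2, which begins haem synthesis in red cells, lay below without overlap, by -2.09. The 7 red blood cell genes with a probe set summed to 145, 113 and 182 in vivo and 120 and 42.6 in vitro.

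**Figure D4:**
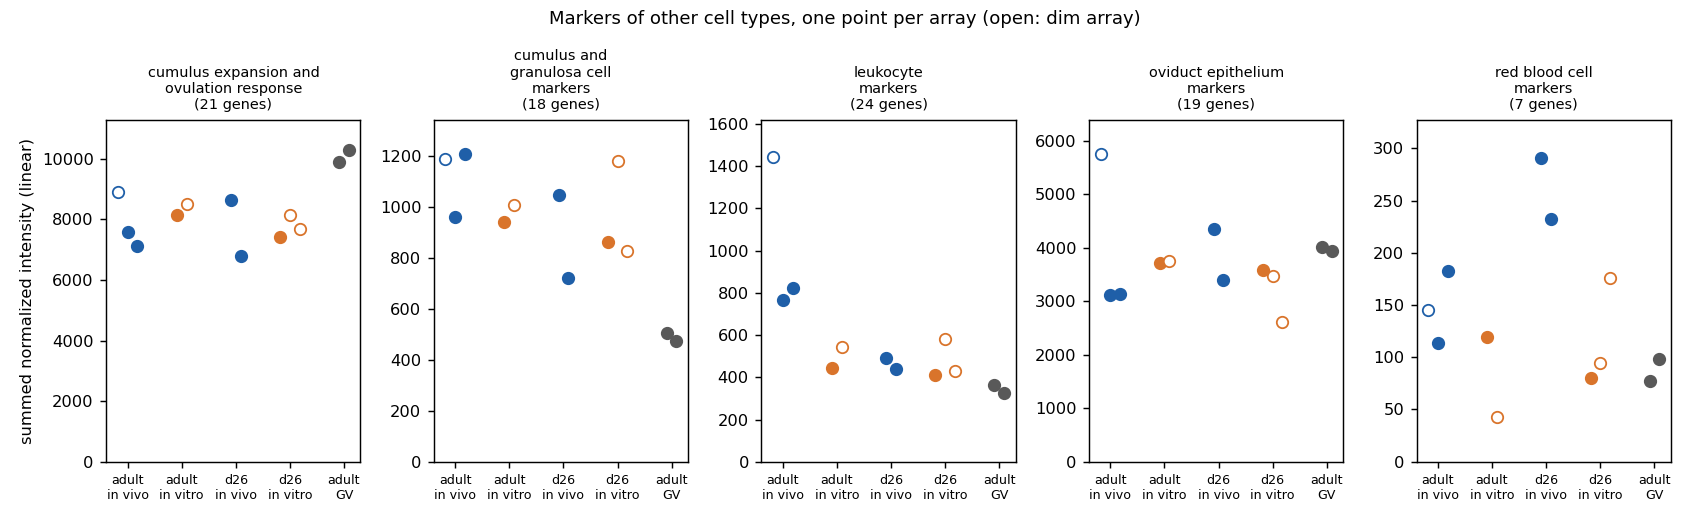
Summed normalized intensity (y axis, linear scale, 1 scale per panel) of 5 lists of markers of other cell types on each array (points) of adult and day 26 MII oocytes and adult GV oocytes, with open symbols for dim arrays. Only the leukocyte panel has all 3 adult in vivo arrays, at 764 to 1444, above both adult in vitro arrays, at 442 and 546. The oviduct sums are mostly Cdh1 and the cumulus expansion sums mostly Rgs2, so the overlap in these panels says little about their other genes.

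Messages of cytosolic ribosomal proteins were more often above than below in ovulated oocytes, without passing the test. Of 46 tested, 14 had in vivo above and 1 below without overlap, and the median difference was 0.19. Rpl7, of the large subunit, read 6.71, 5.42 and 6.24 in vivo and 4.46 and -0.87 in vitro. Rps4x, of the small subunit, read 7.36, 6.19 and 6.87 against 5.42 and 5.11, Rps18 8.41, 6.91 and 7.71 against 6.57 and 5.67, and Rpl19 6.77, 5.84 and 5.93 against 5.37 and 1.86. The dim in vitro array was the lowest of all 5 for each of these 4, and over the list the median difference was 0.19 between brighter and 0.70 between dim arrays. Their means in GV oocytes were 10.68, 12.20, 11.63 and 10.77, above every adult MII array. The 70 mitochondrial ribosomal proteins tested were near the background, with 10 above, 8 below and a median of -0.01. Mrpl22 among them read 8.86, 8.00 and 8.64 against 7.43 and 7.36.

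Genes of the spindle, the checkpoint and cohesion had 9 of 64 with in vivo above and 1 below, with a median of 0.25. Beside Bub3, Ncaph, a condensin subunit, read 9.29, 9.78 and 9.21 in vivo and 8.36 and 8.33 in vitro. Ckap5, a microtubule polymerase, overlapped, at 6.45, 9.05 and 8.36 against 6.90 and 5.25. Smc1b, the meiotic cohesin, was near the bottom of the scale at 1.03, 3.74 and 2.61 against 0.06 and 0.89. Among 48 genes of MII arrest and the meiotic cell cycle, 6 had in vivo above and 7 below. Cdk1, the M-phase kinase, read 5.46, 4.39 and 4.84 against 1.10 and 3.70, and Ensa, which restrains PP2A in M phase, 5.50, 5.14 and 4.92 against 4.55 and 1.60. The anaphase-promoting complex subunits Anapc10 and Anapc5 lay the other way, at 10.44, 10.01 and 10.20 against 10.76 and 10.99, and at 10.96, 10.70 and 10.93 against 11.33 and 11.47. Both of the latter turned sign when the values were used as deposited, at 0.11 and 0.19.

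Few oocyte-specific genes separated the groups. Of 43 oocyte-specific genes 2 had in vivo above and 1 below, with a median of 0.15. Nlrp14, an oocyte NLR protein, read 11.23, 11.70 and 11.16 in vivo and 10.47 and 10.24 in vitro, and differed by 1.50 at day 26. Cd9, the tetraspanin needed for fusion with sperm, read 1.74, 3.22 and 4.76 against 1.57 and 1.67. Of 31 maternal effect genes 2 were above and 5 below, among the latter Ctcf, the insulator protein, at 9.20, 9.16 and 9.13 against 9.78 and 9.85, with another probe set at 0.77 in the other direction. Of 25 dormant maternal messages, stored and then translated in maturation, 1 was above and 1 below, the decapping enzyme Dcp2 at 8.54, 8.02 and 8.50 against 9.07 and 8.88. As deposited, the differences of Ctcf and Dcp2 turned to 0.21 and 0.32.

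Regulators of stored RNA were also near the background, with 9 of 65 above and 5 below. Lsm14b, a translational repressor of oocyte RNA granules, read 11.49, 12.67 and 11.58 in vivo and 9.93 and 10.74 in vitro, and differed by -0.26 at day 26. Tob2, a deadenylase adaptor, lay the other way with nearly equal values at the boundary, at 9.06, 7.85 and 7.96 against 9.06 and 9.62, and another probe set differed by 1.07, with in vivo above without overlap. Eif4ebp1, which restrains cap-dependent translation, read 6.79, 4.88 and 5.57 against 6.97 and 7.22. Of 52 initiation and elongation factors 8 were above and 7 below. Eif3f read 5.88, 5.56 and 6.13 against 3.92 and 2.26, and Eif1b 10.26, 10.80 and 10.65 against 9.98 and 9.40.

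Stress genes lay on both sides. Of 40 heat shock and unfolded protein response genes 2 had in vivo above and 7 below, with a median of -0.03. Among those below, Hsp90b1, a chaperone of the endoplasmic reticulum, read 7.14, 5.37 and 6.24 in vivo and 7.83 and 7.62 in vitro, Hsph1 of the cytosol 6.81, 5.75 and 6.41 against 7.22 and 8.36, and Hspd1 of mitochondria 8.31, 8.46 and 8.65 against 9.39 and 9.18. Another Hsp90b1 probe set, with a mean of 7.43 over all arrays, overlapped with a difference of -0.002. Hspd1 turned to 0.09 when the values were used as deposited. Ddit3, the CHOP factor of the unfolded protein response, lay the other way at 3.92, 4.21 and 4.60 against 1.30 and 1.04. Of 25 immediate early genes 6 were above and 2 below, Ier3 at 5.73, 4.39 and 5.96 against 2.73 and 3.88, and Gadd45b at 6.36, 5.51 and 5.86 against 4.07 and 4.32, with another Gadd45b probe set at -2.62. Of 18 clock genes 0 were above and 5 below. Cry1 read 11.27, 10.82 and 10.36 against 11.41 and 11.50 and turned to 0.093 as deposited. The repressor Bhlhe40 read 1.68, 0.49 and 4.21 against 5.76 and 4.59, while the clock kinase Csnk1e overlapped.

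Metabolic lists had genes on both sides. Of 42 genes of glycolysis, the pentose phosphate pathway and the TCA cycle 4 were above and 5 below. Pfkm, a phosphofructokinase, read 6.05, 5.66 and 5.25 in vivo and 4.15 and 2.92 in vitro, Tkt, transketolase, 6.01, 5.35 and 5.68 against 4.63 and 3.24, and Rpe, another pentose phosphate enzyme, lay below at 9.70, 8.45 and 8.91 against 9.96 and 10.26. Of 42 lipid and cholesterol genes 6 were above and 5 below. Srebf1, the factor behind fatty acid synthesis, read 5.87, 5.93 and 5.83 against 4.99 and 4.03, and Fdft1, squalene synthase, 5.97, 6.24 and 5.97 against 7.16 and 6.77. The difference of Fdft1 turned to 0.079 as deposited, and another of its probe sets differed by 2.87, with in vivo above without overlap. The amino acid transporters Slc7a8 and Slc38a7 differed by 2.13 and 1.10, in a list with 3 of 17 above and 1 below.

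Of 74 respiratory chain and ATP synthase genes 4 were above and 6 below. Uqcrfs1 of complex III read 4.93, 5.78 and 5.73 against 2.58 and 4.29, and Sdhd of complex II 5.04, 4.12 and 4.52 against 1.26 and 1.81. Ndufa7 of complex I lay below at 2.27, 3.61 and 4.62 against 5.71 and 5.79, and Cox7a2 of complex IV at 11.17, 9.83 and 10.31 against 11.25 and 11.59. Of 31 antioxidant genes 3 were above and 3 below, and Txnrd3, a thioredoxin reductase, overlapped at 4.15, 6.77 and 5.99 against 5.28 and -0.48. Of 20 lysosomal genes 4 were above and 1 below, with a median of 0.72. Among them were Ctsb, cathepsin B, at 5.65, 5.87 and 6.19 against 1.30 and 4.79, and Glb1, beta-galactosidase, at 5.72, 5.73 and 5.78 against 5.31 and 3.24.

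Chromatin, repair and protein turnover genes lay on both sides too. Of 69 genes of DNA methylation and chromatin 5 were above and 8 below. Kat6a, an acetyltransferase, read 4.76, 4.82 and 4.31 in vivo and -0.10 and 2.46 in vitro, with another probe set at -0.39, the demethylase Kdm4a overlapped and Smarca2, a remodelling ATPase, lay below by -1.03. Of 54 repair genes 6 were above and 1 below: Rad51c, a recombinase paralog, read 6.61, 7.41 and 6.82 against 5.45 and 3.69, and Pms1, of mismatch repair, 8.65, 7.58 and 8.22 against 7.20 and 6.45. Of 33 proteasome subunits 3 were above and 2 below, with Psmc4 at 8.14, 6.41 and 6.22 against 8.74 and 9.20. Of 29 ubiquitin E1 and E2 enzymes 3 were above and 3 below, with Ube2c, which serves the anaphase-promoting complex, at 5.88, 6.55 and 6.89 against 5.12 and 5.07, and Ube2e3 at 10.07, 9.08 and 9.72 against 10.34 and 10.79. Apoptosis regulators had 1 of 28 above, Diablo, and 1 below, imprinted genes 1 of 15 above, Magel2, and 2 below, and egg calcium signalling genes 4 of 25 above, among them Cd81 and Plcb1, and 2 below.

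**Figure D5:**
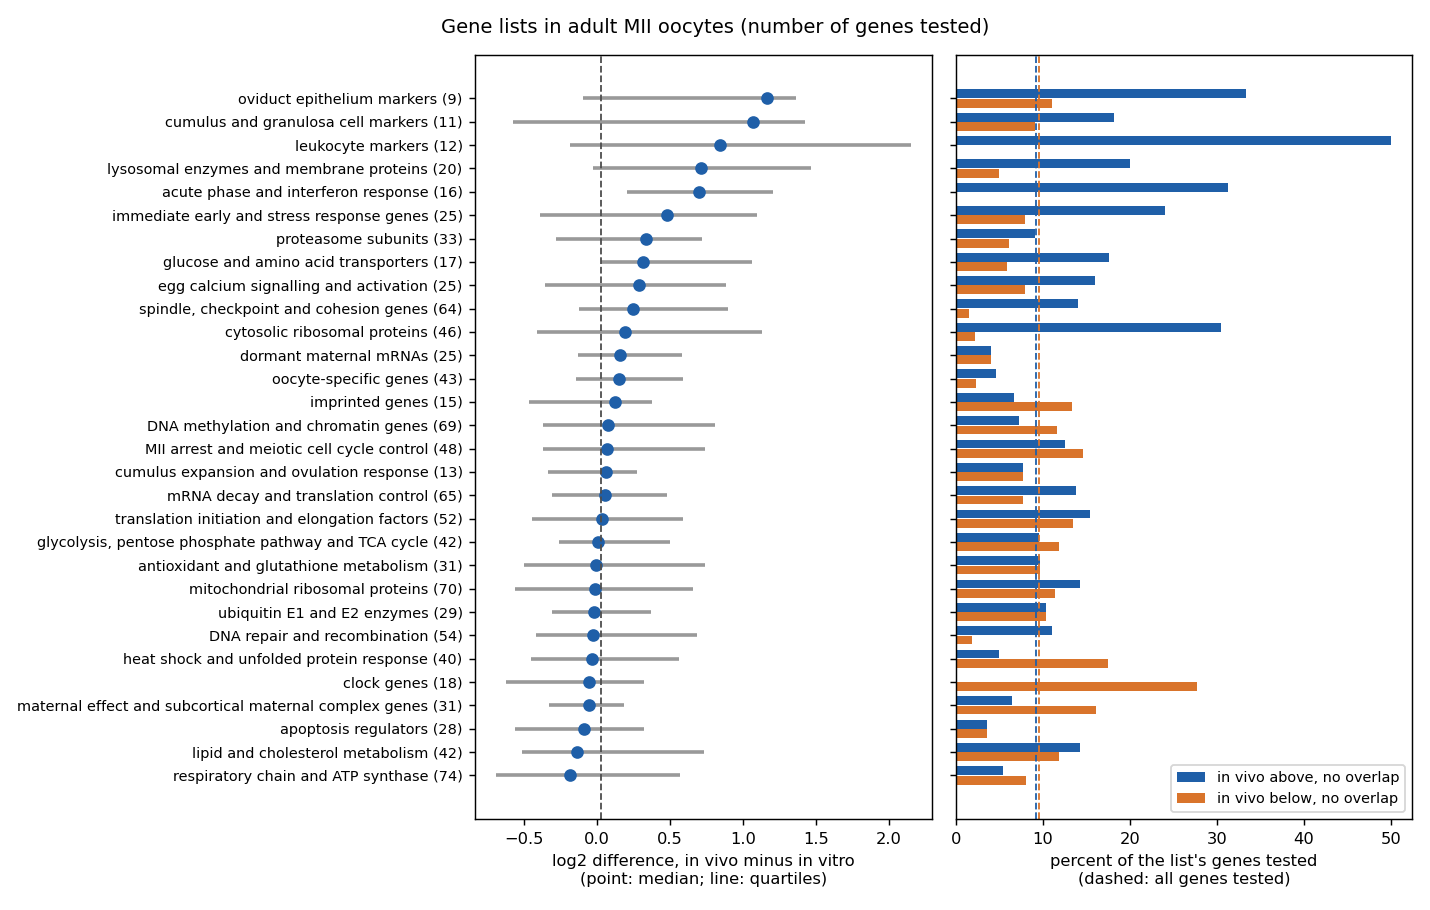
Gene lists in adult oocytes, ordered by their median log2 difference (left: point, median; line, quartiles) with the percent of each list's tested genes whose arrays did not overlap (right: blue, in vivo above; orange, in vivo below). Dashed lines give the same over all 12028 genes. Among the lists past the blue line are leukocyte markers (6 of 12), oviduct epithelium markers (3 of 9), acute phase genes (5 of 16) and cytosolic ribosomal proteins (14 of 46). Among those past the orange line are clock genes (5 of 18) and heat shock genes (7 of 40).

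Whether the in vivo to in vitro difference itself changed with age was tested by the interaction of the same fit. It called 0 probe sets higher and 0 lower (0% each), with 487 (2.16%) and 353 (1.57%) at an unadjusted p below 0.05. The genes with the smallest p were 1700051A21Rik, Myo7b, Crx, Wdtc1 and Ccdc102a with a larger difference in adults, and Fam47e, Gm1673, Nup133, Tbc1d14 and Mnat1 with a larger one at day 26. The lowest adjusted p among them was 0.548 (limma). Myo7b, an unconventional myosin, read 5.24, 5.79 and 4.84 in vivo and 2.68 and 2.66 in vitro in adults, and 3.17 and 4.60 against 5.26, 6.06 and 6.43 at day 26. Tbc1d14, a Rab GTPase-activating protein of autophagy, was the one with the highest level, at 12.39, 12.70 and 12.58 against 12.87 and 12.42 in adults and 12.86 and 13.11 against 12.02, 11.90 and 11.58 at day 26. Fam47e read 0.27, 3.99 and 4.22 against 3.79 and 4.28 in adults, with the dim in vivo array apart, and 4.76 and 4.39 against -0.17, -0.73 and 0.16 at day 26. Gm1673 differed by -1.18 in adults and 3.03 at day 26.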

How the data were processed

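RNA of 15 oocyte pools was measured on Affymetrix arrays. The values are intensities that the authors deposited in the series matrix; the submitters' processing notes name MAS5, with its scaling target not given in the sources used here. All 64 control probe sets were left out, and log2 of the other 45037 was quantile normalized over all 15 arrays. Probe sets in the upper 50% by mean over all arrays (log2 above 3.07) were tested with limma 3.58.1 in R 4.3.3 (lmFit and eBayes with an intensity trend, 6 groups, 9 residual degrees of freedom, two-sided, Benjamini-Hochberg). The main fit was run on simulated data with the same spread on every array, so without dim arrays. It recovered 28.4% of changes of 2 log2 units, 73.1% of 4 and 90.9% of 6, with 4 false calls. Symbols come from GEO's platform annotation, updated to GRCm38.p6: 34958 probe sets have 1 symbol, 932 several and 9211 none. A gene is its tested probe set with 1 symbol and the highest mean. Each array's intensity limits the precision.

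Named genes are those called (none qualified) or else the 10 smallest unadjusted p without overlap in each direction, up to 4 per list by the smallest p, 10 stage and reference genes, and 5 in each direction of the interaction. The genes of the day 26 comparison were added after their values were seen. Members and lists were chosen with earlier results of these data known. Alternatives covered normalization, filter, pseudocount, fit, array quality and brightness, and leaving out arrays.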

Additional observations from a re-analysis of the deposited data

Results flagged for a closer look

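Among the genes named, 8 had adult arrays that did not overlap in one direction and day 26 arrays that did not overlap in the other. Over all 12028 genes tested, 110 did so. In the same direction at both ages, 253 had in vivo above without overlap and 227 had in vivo below. The difference of the in vivo minus in vitro difference between adults and day 26 (log2) was 6.21 for 1700051A21Rik, 5.04 for Crx, a photoreceptor homeobox factor, 4.65 for Myo7b, 3.75 for Ccdc102a and 2.89 for Smc1b, all higher in adults in vivo and lower at day 26. It was -4.86 for Nup133, a nuclear pore protein, -3.55 for D5Ertd615e and -3.25 for Mnat1, a subunit of the CDK-activating kinase, in the other direction. The test of this difference called none of the 8, with adjusted p-values of at least 0.548 (limma). All but D5Ertd615e and Smc1b were chosen for a small p in that test.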

How the results depend on the processing

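The 1 probe set called higher in vivo in adults remained the count under median scaling, no filter, the pseudocount and the title number as a block, but with the pseudocount it was another one, a probe set of Lyz1 (7.14, adjusted p = 0.00659, limma), a lysozyme gene. The count was 0 with values as deposited, with values normalized over and fitted to the 5 adult arrays, with the fit to these 5 arrays, with the upper 30% of probe sets, with array weights and with brightness as a covariate. It was 5 without the intensity trend, and 119 (with 3 lower) without the dim arrays. Leaving out each array in turn gave 0 to 407 higher and 0 to 5 lower, the largest count without in vitro array 1. At day 26, in settings chosen after seeing the data, the 9 probe sets called higher became 0 as deposited and without the trend, 36 under median scaling, 45 with array weights (3 lower), 15 with the covariate (1 lower), 87 without the dim arrays and 1 with the block, and 2 were lower in the upper 30%. Genes of the lists called went from 0 to 4 without the dim arrays. The interaction called 0 in each direction under all alternatives run. The cause was not tested.

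The median difference over probe sets was 0.03 after normalization, 0.20 under median scaling and 0.84 as deposited, so directions are relative to that shift. As deposited, the difference turned to 0.21 for Ctcf, 0.11 for Anapc10, 0.19 for Anapc5, 0.32 for Dcp2, 0.091 for Hspd1, 0.079 for Fdft1, 0.093 for Cry1, 0.38 for Bmp15, 0.85 for Zp3, 0.48 for Tbc1d14 and 0.059 for Mnat1. Another probe set gave 0.90 for H2aj, 1.36 for Prkg1, 0.77 for Ctcf, -2.62 for Gadd45b, -0.39 for Kat6a, -0.38 for Plcb1, 2.87 for Fdft1, 1.07 for Tob2, 0.87 for Cd151 and -0.48 for Vps35l. Further probe sets brighter than these gave -1.20 for Cd151, -0.67 for Tob2, -0.43 for Fdft1 and 0.74 for Vps35l. Each went in the direction of the main one, those of Tob2, Fdft1 and Vps35l with overlap. Other genes also turned: Zp3 (0.21 under median scaling, 0.094 with array weights), H1f8 (-0.36 with the covariate) and Fam47e (0.31 without the dim arrays). With 1 array left out in turn, Gdf9 ran from -0.050 to 1.25, H1f8 from -0.33 to 1.29, Zp3 from -0.35 to 0.14, Actb from -0.69 to 0.89, Fam47e from -1.90 to 0.067 and Tbc1d14 from -0.31 to 0.14.

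No paired analysis was possible because the numbers in the titles run through the whole series and are shared by no pair of arrays. With 2 and 3 pools, weak signals and dim arrays, differences of the size of the standard error were not detectable.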
